A study of Homo sapiens with 17 samples.

Results

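The genes described here encode the subunits of 2 linked translation factors, eIF2 and its exchange factor eIF2B. They were chosen by name: EIF2S1, EIF2S2 and EIF2S3 encode the alpha, beta and gamma subunits of eIF2, and EIF2B1 to EIF2B5 encode the alpha, beta, gamma, delta and epsilon subunits of eIF2B. Of these 8 genes, 7 had a transcript that could be matched to the annotation at 36 h and 8 had one at 72 h. Each of them passed the count minimum, which left 9016 and 10896 tested genes in all at these times. EIF2B5 was not analysed at 36 h because no listed transcript was matched to it, which does not mean that it had no reads. Its value at 72 h rested on a short transcript of 321 coding bases, which are the first 321 of the 2163 coding bases of a long transcript of the gene, so it was left out of comparisons between subunits.

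HEK293, a human embryonic kidney line, was electroporated with Cas9, which cuts DNA, or with dCas9, the catalytically dead form that binds without cutting. Both proteins carried the same guide, sgIntron, which targets an intron of JAK2, at 300 pmol of protein and 300 pmol of guide per the labels, so that the dCas9 controls shared the guide, the protein load and the electroporation. Ribosome footprints, the stretches of mRNA held inside ribosomes, and total mRNA were sequenced from lysates 36 or 72 h later in 17 libraries. At 36 h there were 2 Cas9 and 2 dCas9 footprint libraries with 3 Cas9 and 2 dCas9 mRNA libraries, and at 72 h each group held 2 libraries. Per the study's methods, each replicate was a plate that pooled several electroporations, with synthetic guides used at 36 h only, and the aligner and annotation also differed between the times. Differences between 36 and 72 h therefore cannot be told apart from these changes, and all tests were made within a time point.

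The libraries held 689636 to 4868580 footprint counts and 25095505 to 33350952 mRNA counts at 36 h, and 3183555 to 8864461 footprint counts and 33040296 to 42825667 mRNA counts at 72 h. Replicate a of Cas9 and replicate e of dCas9 were the shallow footprint libraries at 36 h, with 957811 and 689636 counts, against 2514325 and 4868580 in the others. The line was checked with 8 markers of HEK293, which summed to 806 to 1248 CPM of mRNA in every library. The sum rested mostly on VIM, at 571 to 1018 CPM. KRT8, NEFM and LHX1 were at 2.52 to 13.8 CPM and PAX2 at no more than 0.30 CPM. The erythroid marker GATA1 was at 0 in all mRNA libraries, and TAL1 was at 0.66 to 1.73 CPM at 36 h. JAK2, the cut gene, had 131 to 472 mRNA counts and 0 to 23 footprint counts per library, too few footprints for the test.

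eIF2 binds GTP and the initiator methionyl-tRNA through its gamma subunit and brings that tRNA to the small ribosomal subunit. When the start codon is met, GTP is hydrolysed and eIF2 leaves bound to GDP, and eIF2B then exchanges the GDP for GTP. Stress kinases phosphorylate the alpha subunit of eIF2 on serine 51, which turns eIF2 into an inhibitor of eIF2B, lowers initiation at most mRNAs and favours a few with upstream reading frames, such as ATF4. Within eIF2B, gamma and epsilon form the catalytic part, while alpha, beta and delta bind phosphorylated eIF2. Phosphorylation itself leaves no trace in these counts, which report mRNA and ribosomes on mRNA.

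The serine codon lies in EIF2S1, and it is shown because it is the site at which eIF2 is regulated. It is codon 52 counted from the start codon, and residue 51 without the initiator methionine. The stretch printed comes from exon 2 of 8, coding bases 124 to 186, at chr14:67364891-67364953 on the plus strand of GRCh38, with the serine codon in capitals.
EIF2S1: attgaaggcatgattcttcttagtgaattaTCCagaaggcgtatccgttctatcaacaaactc

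EIF2S3 has an intronless relative, EIF2S3B, that is itself listed in the counts, and the 2 coding sequences are shown in part because their likeness bears on the level of EIF2S3. Both are 1416 bases long, differ at 25 bases and are 98.2% identical, with 205 bases as the longest identical run. The stretch holds coding bases 298 to 357 of each, from exon 4 of 12 of EIF2S3 at chrX:24057669-24057728 and from the single exon of EIF2S3B at chr12:10506200-10506259, both on the plus strand, and the 6 bases that differ are in capitals.
EIF2S3: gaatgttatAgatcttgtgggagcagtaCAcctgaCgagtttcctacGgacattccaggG
EIF2S3B: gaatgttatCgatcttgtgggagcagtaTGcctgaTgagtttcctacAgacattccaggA

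The members are spread over 8 chromosomal places. On GRCh38, EIF2S1 spans 67360328 to 67386516 of chromosome 14 (plus strand), EIF2S2 spans 34088309 to 34112243 of chromosome 20 (minus) and EIF2S3 spans 24054946 to 24078810 of chromosome X (plus). EIF2B1 lies at 123620406 to 123633766 of chromosome 12 (minus), EIF2B2 at 75002921 to 75012366 of chromosome 14 (plus) and EIF2B3 at 44850522 to 44986722 of chromosome 1 (minus). EIF2B4 lies at 27364352 to 27370338 of chromosome 2 (minus) and EIF2B5 at 184135038 to 184146127 of chromosome 3 (plus). None of the genes lies beside another.

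Near-identical copies touched 2 members. Of all 28-base windows of the coding sequence, about the length of a footprint, 82.5% of those of EIF2S2 occurred elsewhere in the genome, in 7 places that hold its processed pseudogenes, and 64.1% of those of EIF2S3 occurred in EIF2S3B. The other 6 members had 0% of their windows elsewhere. At 50 bases, the length of an mRNA read, the shares were 61.9% for EIF2S2 and 45.8% for EIF2S3. The listed density of EIF2S3B was 0.715 to 0.771 of that of EIF2S3 in the 36 h footprints and 0.308 to 0.326 in the 36 h mRNA, with 0.477 to 0.515 and 0.208 to 0.220 at 72 h. How the counting split reads between copies was not tested, so the levels of EIF2S2 and EIF2S3 are uncertain by these shares. On the opposite strand, noncoding genes overlap 15.6% of the coding bases of EIF2B2 and 6.31% of those of EIF2B4.

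The first question was how much mRNA and how many ribosomes each subunit carried. Densities are CPM, each gene's share of a library's counts on a scale of 1000000 with the library sizes adjusted by TMM, per 1000 counted codons, so that genes of different length can be set beside each other. The eIF2 subunits stood above those of eIF2B, and EIF2S3 was the highest member in every library. In dCas9 cells the 3 eIF2 genes lay at or above the 83.2 percentile of all tested genes by mRNA density and at or above the 84.4 percentile by footprint density, while the eIF2B genes lay between the 59.1 and 81.3 percentiles. The summed RNA of a culture was measured, so that fewer cells with a transcript and less RNA per cell cannot be told apart.

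**Figure D1:**
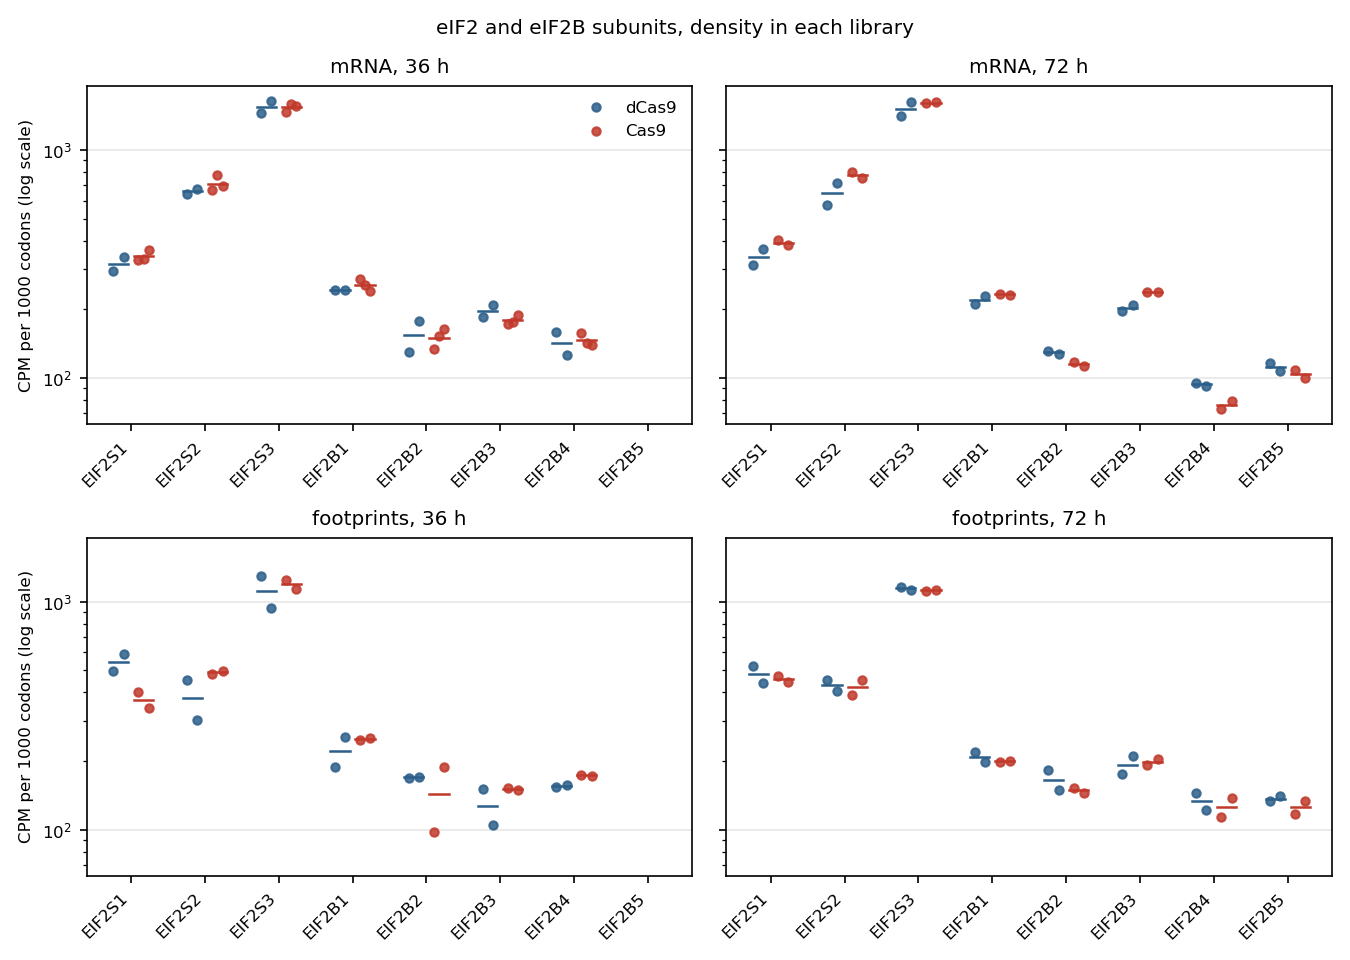
Density of each subunit in each library, as CPM per 1000 codons on a log axis, with mRNA above and footprints under it, and 36 h at left and 72 h at right. Points are libraries (blue dCas9, red Cas9) and short lines are group means. EIF2S3 is highest in every panel, and the eIF2B subunits lie under the eIF2 subunits.

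EIF2S3, the gamma subunit that binds GTP and the tRNA, had mRNA densities at 36 h of 1468, 1586 and 1560.4 in the Cas9 libraries and 1452 and 1635 in the dCas9 libraries, and at 72 h of 1607 and 1621 with Cas9 and 1412 and 1621 with dCas9. Its footprint densities at 36 h were 1240.2 and 1139 with Cas9 and 1293 and 933 with dCas9, and at 72 h 1113 and 1124 with Cas9 and 1162 and 1124 with dCas9. No other member came near these levels, and the Cas9 and dCas9 libraries overlapped in all but the 72 h footprints, where pairs of libraries differed by -0.06 to -0.0003 on the log2 scale.

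EIF2S2, the beta subunit that contacts eIF5 and eIF2B, had mRNA densities at 36 h of 669.6, 774 and 694 with Cas9 and 641 and 678 with dCas9. At 72 h its mRNA was at 798 and 755 with Cas9 and 574 and 716 with dCas9, so that both Cas9 libraries were above both dCas9 libraries. Its footprint densities were 482 and 496 with Cas9 and 455 and 303 with dCas9 at 36 h, and 390.5 and 455 with Cas9 and 454 and 407 with dCas9 at 72 h. The value of 303 came from 59 footprints in the shallowest library, with an exact 95% counting interval of 231 to 391. Intervals of this kind cover counting error only.

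EIF2S1, the alpha subunit that carries serine 51, had mRNA densities of 329, 334 and 364 with Cas9 and 296 and 338 with dCas9 at 36 h, and of 401 and 382 with Cas9 and 313 and 367 with dCas9 at 72 h. In every mRNA library it was the lowest of the eIF2 subunits. Its footprint densities at 36 h were 402 and 341 with Cas9 and 494 and 589 with dCas9, so that both Cas9 libraries were under both dCas9 libraries. The 402 rested on 103 footprints (interval 328 to 487) and the 589 on 108 footprints (interval 483 to 712). At 72 h its footprints were at 471 and 444 with Cas9 and 521 and 438 with dCas9, and the groups overlapped.

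Among the eIF2B subunits, EIF2B1, the alpha subunit, had mRNA densities of 272, 255.9 and 240.1 with Cas9 and 243 and 244 with dCas9 at 36 h, and 234 and 231 with Cas9 and 211 and 228 with dCas9 at 72 h. EIF2B3, the gamma subunit, had 172, 176 and 188 with Cas9 and 185 and 209.8 with dCas9 at 36 h, and 239 and 238 with Cas9 and 197 and 209.6 with dCas9 at 72 h. These were the more abundant eIF2B mRNAs by density, and they did not overlap at 36 h but did at 72 h.

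EIF2B2, the beta subunit, had mRNA densities of 135, 153 and 164 with Cas9 and 130.0 and 178 with dCas9 at 36 h, and 118 and 113 with Cas9 and 132 and 128 with dCas9 at 72 h. EIF2B4, the delta subunit, had 157, 143 and 139 with Cas9 and 158 and 126 with dCas9 at 36 h, and 73.1 and 79.3 with Cas9 and 95.1 and 92.3 with dCas9 at 72 h. EIF2B4 was counted on different transcripts at the 2 times. Both genes were lower with Cas9 than with dCas9 in all 4 pairs of 72 h mRNA libraries and overlapped at 36 h.

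The eIF2B footprints at 36 h rested on far fewer counts than their mRNA. EIF2B1 was at 246 and 251 with Cas9 and 189 and 254 with dCas9, and EIF2B4 was at 174 and 172 with Cas9 and 153 and 157 with dCas9. EIF2B3 was at 152 and 149 with Cas9 and 150.02 and 104 with dCas9, and EIF2B2 was at 97.4 and 189 with Cas9 and 168 and 170.2 with dCas9. The lowest of these, 97.4, rested on 28 footprints (interval 64.7 to 141), and the other 3 libraries of EIF2B2 were above it.

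At 72 h the footprint densities of EIF2B1 were 198 and 200.5 with Cas9 and 219 and 197 with dCas9, and those of EIF2B3 were 193 and 203 with Cas9 and 175 and 210.2 with dCas9. EIF2B2 was at 153 and 145 with Cas9 and 183 and 148 with dCas9, and EIF2B4 at 113 and 138 with Cas9 and 145 and 122 with dCas9. Every one of these groups overlapped. EIF2B5, the epsilon subunit that holds the exchange activity, was at 117 and 134 with Cas9 and 134 and 140.0 with dCas9 in footprints and at 108 and 99.7 with Cas9 and 117 and 107 with dCas9 in mRNA, over its short transcript of 88 counted codons.

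In mRNA the order EIF2S3, EIF2S2, EIF2S1, EIF2B1 held at both times, and the ranges of these neighbours did not overlap across libraries. In footprints EIF2S1 and EIF2S2 overlapped at both times, with EIF2S2 the higher by median at 36 h and EIF2S1 at 72 h, while EIF2S3 stayed above them and EIF2B1 stayed under them without overlap. Further down, EIF2B3 followed EIF2B1 in the 36 h mRNA and was last in the 36 h footprints by median. EIF2B3 overlapped with EIF2B2 in the 36 h mRNA and EIF2B2 with EIF2B4 in the same libraries, and in the 72 h mRNA EIF2B3, EIF2B2 and EIF2B4 were separated in that order.

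The second question was how the subunits of each complex related to each other within a library, where scaling cancels. In mRNA, EIF2S1 was at 0.431 to 0.544 of the density of EIF2S2 over 9 libraries (median 0.503). In footprints the same ratio was 0.689 to 1.94 over 8 libraries (median 1.08), and the mRNA and footprint ranges did not overlap. The footprint means at 36 h were 0.76 ± 0.10 (SD) with Cas9 and 1.51 ± 0.61 with dCas9, and at 72 h 1.09 and 1.11. These groups were not compared by a test. The 72 h footprints alone gave 0.976 to 1.21, so the listed footprint densities of the alpha and beta subunits were near-equal in those 4 libraries. EIF2S2 has the copies described above and EIF2S1 has none. The part of the copies in these ratios, and in their difference between mRNA and footprints, was not tested. The highest value, 1.94, came from the shallowest library.

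EIF2S3 came closer to EIF2S1 in footprints than in mRNA, but it did not come closer to EIF2S2. It stood at 2.01 to 2.46 times EIF2S2 in mRNA and 2.30 to 3.08 times in footprints, and at 4.01 to 4.91 times EIF2S1 in mRNA and 1.58 to 3.34 times in footprints. These ratios carry the copies of EIF2S2 and EIF2S3 described above, whose part in them was not tested. The spread over the 3 eIF2 subunits, as the SD of log2 density, was 1.00 to 1.15 in mRNA and 0.73 to 0.89 in footprints, and the ranges did not overlap. The 13 subunits of eIF3, a larger initiation factor taken for comparison, had SDs of 0.77 to 1.14 in mRNA and 0.82 to 0.94 in footprints.

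**Figure D2:**
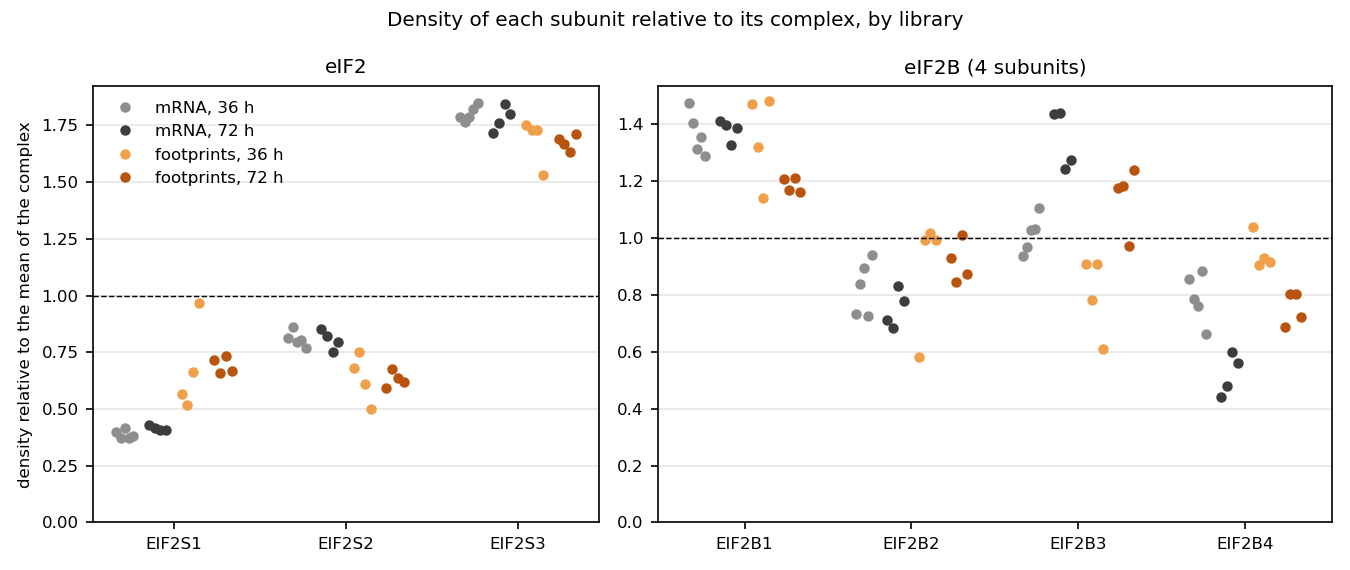
Density of each subunit divided by the mean density of its complex in the same library, for eIF2 at left and for EIF2B1 to EIF2B4 at right. Each point is a library (grey mRNA, orange footprints, darker at 72 h), and the dashed line marks equal density. EIF2S1 lies at 0.37 to 0.43 in mRNA and at 0.52 to 0.97 in footprints.

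In eIF2B the ratio of the highest to the lowest of 4 subunits was 1.72 to 2.02 in the 36 h mRNA (median 1.87) and 1.26 to 2.53 in the 36 h footprints (median 2.06), which overlapped. It was 2.22 to 3.27 in the 72 h mRNA and 1.48 to 1.75 in the 72 h footprints, without overlap. Its means in the 72 h mRNA were 3.13 with Cas9 and 2.34 with dCas9, and in the 72 h footprints 1.61 with each. A difference between the groups was not tested. The pair EIF2B1 and EIF2B4 gave 2.22 to 3.20 in the 72 h mRNA and 1.46 to 1.75 in the 72 h footprints. At 36 h this pair gave 1.53 to 1.94 in mRNA and 1.23 to 1.62 in footprints, which overlapped. Between the complexes, the mean of EIF2S1 and EIF2S2 was 2.61 to 3.61 times the mean of the eIF2B subunits in mRNA and 2.20 to 2.87 times in footprints.

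The third question was which members carried more or fewer ribosomes per mRNA than other genes, in the dCas9 controls. The ratio of footprint to mRNA CPM was set over that of the median tested gene for each footprint library. At 36 h the mRNA library was the one with the same replicate letter, taken to be the same lysate, which the letters alone do not settle. At 72 h the mean of both mRNA libraries of the group was used. The ratio was tested against the average gene in edgeR's quasi-likelihood fit over all genes. Benjamini-Hochberg adjustment was used, with an adjusted p under 0.1 as the threshold. The ranges given below span the Cas9 and dCas9 libraries of a time together. Fitted log2 ratios and their p-values are those of dCas9 cells alone. This fit shares 1 estimate of spread between footprints and mRNA. On simulated data it called 482 unchanged genes in the 36 h footprints and 52 in the 72 h mRNA. The ratio itself was not simulated, so its SEs and adjusted p-values may be too small, above all at 36 h. EIF2S1 was above and EIF2S2 and EIF2S3 were below the average gene at both times.

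EIF2S1 was at 1.71 and 1.82 times the median gene in the 36 h dCas9 libraries and at 1.27 and 0.965 in the Cas9 libraries, and at 72 h at 1.60 and 1.34 with dCas9 and 1.27 and 1.21 with Cas9. At both times its Cas9 libraries were under its dCas9 libraries, where 14.7% of all genes were at 36 h and 22.5% at 72 h. At 72 h this also held for EIF2S2, EIF2S3 and EIF2B1, and at 36 h EIF2S2 was higher with Cas9 without overlap, where 16.7% of all genes were. No member was higher with Cas9 in this sense at 72 h, where 30.3% of all genes were. At 72 h both footprint libraries of a group were divided by the same mRNA mean. The spread between mRNA libraries therefore does not enter the overlap at 72 h. The fitted log2 ratio of EIF2S1 in dCas9 cells was 0.74 ± 0.17 (SE, edgeR adjusted p = 0.0026) at 36 h and 0.50 ± 0.12 (edgeR adjusted p = 0.0017) at 72 h.

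EIF2S2 ranged from 0.469 to 0.747 times the median gene at 36 h and from 0.532 to 0.731 at 72 h, and its log2 ratio was -0.72 ± 0.17 (edgeR adjusted p = 0.0033) and -0.59 ± 0.12 (edgeR adjusted p = 0.0005). EIF2S3 ranged from 0.598 to 0.910 and from 0.730 to 0.796, with log2 ratios of -0.44 ± 0.14 (edgeR adjusted p = 0.019) and -0.41 ± 0.09 (edgeR adjusted p = 0.0007). These are the 2 members with copies elsewhere in the genome, and EIF2S3B itself was at 1.43 to 2.13 and 1.63 to 1.86 times the median gene. The part of the copies in the low ratios was not tested.

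**Figure D3:**
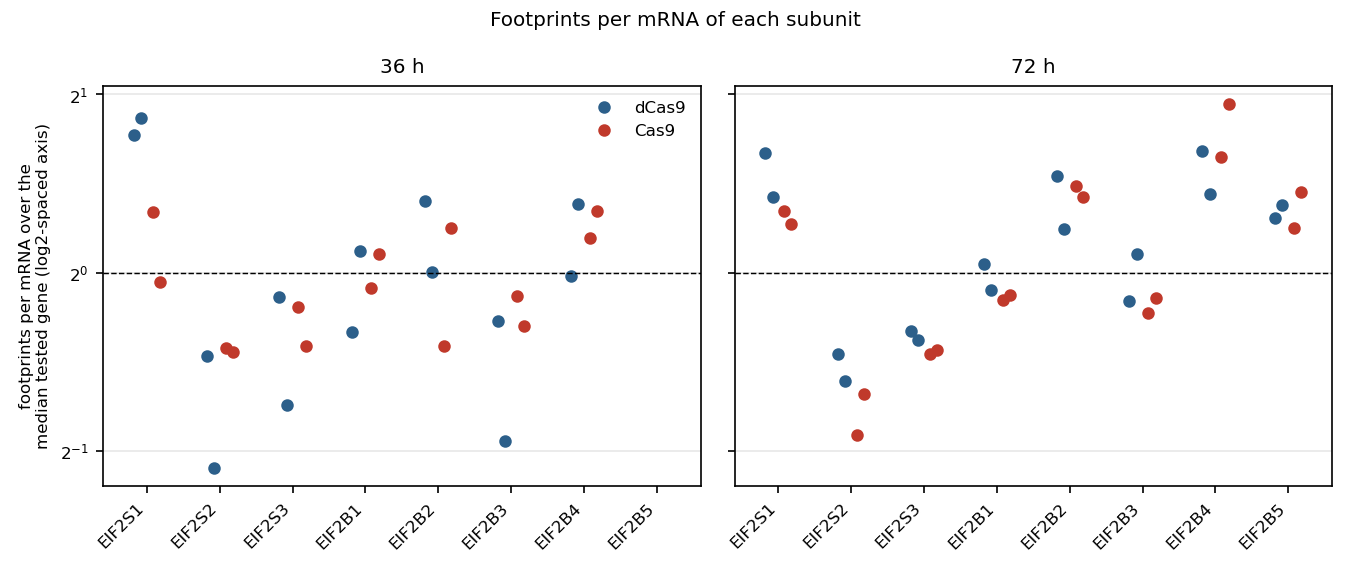
Footprints per mRNA of each subunit in each footprint library, relative to the median tested gene (dashed line), on an axis spaced by log2, with 36 h at left and 72 h at right. Points are libraries, blue for dCas9 and red for Cas9. EIF2S1 lies above the line in 7 of 8 libraries, and EIF2S2 and EIF2S3 lie under it in all 8.

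Within eIF2B the 2 times gave different calls. At 36 h EIF2B3 was below the average gene (log2 -0.54 ± 0.20, edgeR adjusted p = 0.041). It was at 0.828 and 0.521 times the median with dCas9 and 0.916 and 0.814 with Cas9. EIF2B4, EIF2B2 and EIF2B1 had log2 ratios of 0.12, 0.13 and -0.22 and did not pass. At 72 h EIF2B4 was above the average gene (log2 0.51 ± 0.13, edgeR adjusted p = 0.0031). It was at 1.60 and 1.36 times the median with dCas9 and 1.57 and 1.93 with Cas9. EIF2B2 was also above the average gene at 72 h, at 1.19 to 1.46 times the median (log2 0.34 ± 0.13, edgeR adjusted p = 0.031). EIF2B1, EIF2B3 and EIF2B5 had log2 ratios of -0.08, -0.08 and 0.29 and did not pass, and whether the times differ was not tested.

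In total 1 of 7 members was called above and 3 were called below the average gene at 36 h, where 23.6% and 24.6% of all tested genes were called in these directions. At 72 h 3 of 8 members were called above and 2 below, where 32.7% and 37.8% of all genes were. Large shares of all genes were thus called in both directions, and the calls describe these genes only. The call of EIF2B3 at 36 h was lost without a count minimum (adjusted p = 0.11), and those of EIF2B3 and EIF2S3 were lost when dCas9 mRNA replicate e was left out. The call of EIF2S3 was also lost without dCas9 footprint replicate e, and that of EIF2B2 at 72 h without dCas9 footprint replicate e (adjusted p = 0.33).

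The fourth question was whether a cut by Cas9 changed the members. No member passed the test in footprints, mRNA or translational efficiency (the change in footprints beyond that in mRNA) at either time, with edgeR or with DESeq2. At an unadjusted edgeR p under 0.05 were 1 member in the 36 h footprints and in the 36 h translational efficiency (EIF2S1) and 2 in the 72 h mRNA (EIF2S2 and EIF2B4). At 36 h, 0% of all tested genes passed in each of the 3 measures, with 862, 26 and 568 genes at an unadjusted p under 0.05 in footprints, mRNA and translational efficiency and 46, 0 and 1 genes called by DESeq2. At 72 h, 0% passed in footprints (396 genes at an unadjusted p under 0.05, 0 by DESeq2), 5.63% in mRNA (1855 genes at an unadjusted p under 0.05) and 0.716% in translational efficiency (1219 genes). Without Cas9 mRNA replicate a 110 genes passed in 72 h mRNA. Each replicate was its own plate. The p-values rest on a spread pooled over footprint and mRNA libraries. The fit treated these libraries as separate, although per the study both types came from shared lysates.

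**Figure D4:**
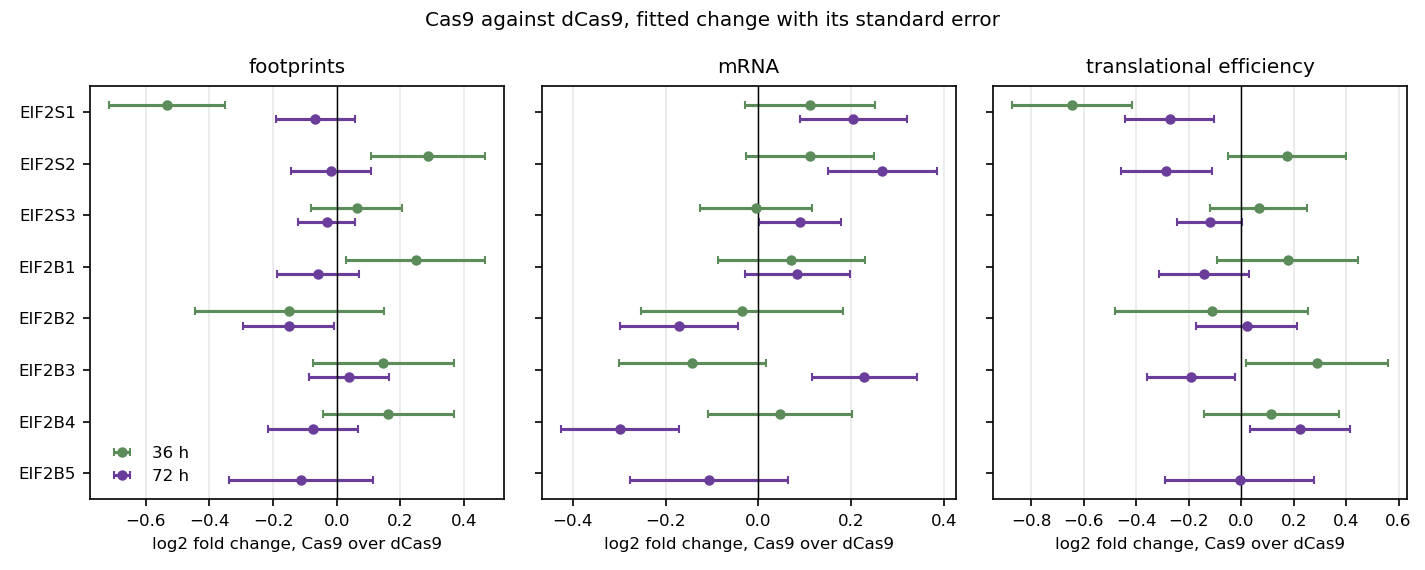
Fitted log2 fold change of each subunit, Cas9 over dCas9, with its standard error, in footprints, mRNA and translational efficiency at 36 h (green) and 72 h (purple). The vertical line marks no change. EIF2S1 at 36 h is lowest in footprints and in translational efficiency, and no subunit passed the threshold.

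EIF2S1 had the lowest p of the members in the 36 h footprints. Its log2 fold change was -0.53 ± 0.18 (SE, edgeR unadjusted p = 0.010, adjusted p = 0.41), and Cas9 was lower in 4 of 4 pairs of libraries. The joint fit shares its estimate of spread between footprints and mRNA. Fitted on the footprint libraries alone EIF2S1 had an SE of 0.26 and an unadjusted edgeR p of 0.052, and DESeq2 gave it an adjusted p of 0.20. Its mRNA differed by 0.11 ± 0.14, and its translational efficiency by -0.64 ± 0.23 (edgeR adjusted p = 0.78). When dCas9 footprint replicate d was left out, which leaves the shallowest library as the only control, EIF2S1 at -0.69 and EIF2S2 at 0.69 passed in footprints, both with an edgeR adjusted p of 0.085, and 918 of all 9016 genes passed in that fit.

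The other members changed less in the 36 h footprints. EIF2S2 differed by 0.29 ± 0.18 and EIF2B4 by 0.16 ± 0.21 on the log2 scale, both higher with Cas9 in 4 of 4 pairs, and EIF2B1, EIF2B3, EIF2S3 and EIF2B2 differed by 0.25, 0.15, 0.06 and -0.15 with overlapping groups. Thus 2 of 7 members were higher and 1 was lower without overlap, where 16.3% and 14.1% of all genes were. The median over the members was 0.15, beside 0.02 over all tested genes. In the 36 h mRNA, log2 fold changes ran from -0.14 for EIF2B3 to 0.11 for EIF2S2, and 0 of 7 members were free of overlap, where 8.43% of all genes were higher and 8.5% lower.

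At 72 h the footprints of the members differed by -0.15 (EIF2B2) to 0.04 (EIF2B3) on the log2 scale, with SEs of 0.09 to 0.23. EIF2S3, at -0.03 ± 0.09, was lower in 4 of 4 pairs, and no other member was free of overlap, where 16% of all genes were higher and 15.8% lower. The median over the members was -0.06, beside 0.00 over all tested genes.

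In the 72 h mRNA the members split. Both Cas9 libraries were above both dCas9 libraries for EIF2S1, EIF2S2, EIF2B1 and EIF2B3, and under them for EIF2B2 and EIF2B4, where 23.8% of all genes were higher and 25.8% lower without overlap. The log2 fold changes were 0.27 ± 0.12 for EIF2S2 (edgeR adjusted p = 0.26), 0.23 ± 0.11 for EIF2B3 (edgeR adjusted p = 0.31), 0.20 ± 0.12 for EIF2S1 (edgeR adjusted p = 0.38) and -0.30 ± 0.13 for EIF2B4 (edgeR adjusted p = 0.25). EIF2B2, EIF2B5, EIF2S3 and EIF2B1 were at -0.17, -0.11, 0.09 and 0.08. None passed, although EIF2S2 (0.38, edgeR adjusted p = 0.025) and EIF2B4 (-0.38, edgeR adjusted p = 0.065) passed when dCas9 mRNA replicate b was left out, a fit in which 2472 of all 10896 genes passed. Translational efficiency ran from -0.29 for EIF2S2 to 0.22 for EIF2B4.

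GC content moved with these mRNA differences. Over all genes with a known coding sequence at 72 h, the log2 fold change of mRNA had a Spearman correlation of -0.41 with coding GC content, given as a description since genes of 1 library share its base composition. The members ran from 40.3% GC in EIF2S2 to 60.1% in the counted part of EIF2B5. Relative to the median of the 200 tested genes nearest in GC, EIF2S2 was at 0.05, EIF2S1 at 0.02, EIF2S3 at -0.04 and EIF2B1 at 0.04, so that these differed little from genes of like GC content. EIF2B3 at 0.14, EIF2B2 at -0.11 and EIF2B4 at -0.24 kept their signs. This comparison was added after the data had been seen.

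**Figure D5:**
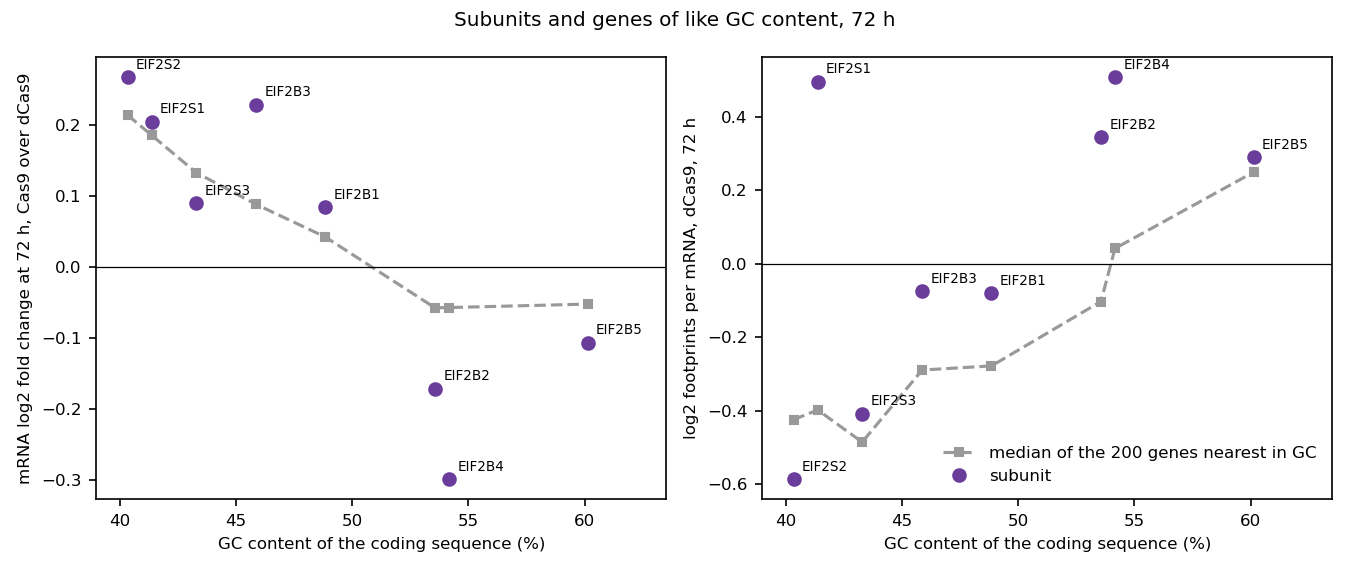
Coding GC content of each subunit in percent, against its log2 fold change of mRNA at 72 h (left, Cas9 over dCas9) and its log2 footprint to mRNA ratio in dCas9 cells at 72 h (right). Circles are subunits and grey squares are medians of the 200 tested genes nearest in GC. At left EIF2B4 lies 0.24 under its neighbours, and at right EIF2S1 lies 0.89 above them.

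The footprint to mRNA ratio also moved with GC content, with a Spearman correlation over genes of 0.26 at 36 h and 0.35 at 72 h. Against genes of like GC content EIF2S1 stood further out, by 1.03 at 36 h and 0.89 at 72 h on the log2 scale. EIF2S2 was at -0.46 and -0.16 and EIF2S3 at -0.21 and 0.08, so that the low ratio of EIF2S3 at 72 h was that of its neighbours. EIF2B4 was at 0.05 and 0.47, and EIF2B2 at 0.09 and 0.45.

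The genes that work with eIF2 were looked at as lists. Of 12 partners in the eIF2 cycle, 11 were tested at 36 h and 12 at 72 h, and the 1 that passed was EIF1, the factor that guards start codon choice, whose 72 h mRNA fell by 0.54 on the log2 scale (edgeR adjusted p = 0.031). Over all tested genes 5.63% passed in the 72 h mRNA, 567 of them lower and 46 higher with Cas9. EIF1 mRNA was at 20.9 to 23.7 CPM with Cas9 and 28.7 to 35.9 CPM with dCas9. The list's median log2 fold change in 72 h mRNA was 0.20, beside 0.02 over all genes. EIF5, which makes eIF2 hydrolyse its GTP, had 61.6 to 77.5 footprint CPM with Cas9 and 70.0 to 86.0 with dCas9 at 72 h, and CDC123, which assembles eIF2, had 129 to 136 with Cas9 and 120.3 to 139.8 with dCas9, both overlapping. EIF5B, the GTPase that joins the ribosomal subunits, was the lowest of the list in 36 h footprints (-0.69 ± 0.25, edgeR adjusted p = 0.42) and MCTS1 the highest (0.63), and neither passed.

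Among the 11 genes of the list that holds the 4 eIF2 alpha kinases, the phosphatase subunits and GSK3, which phosphorylates eIF2B epsilon, 1 passed. The call was in the 72 h mRNA, where 5.63% of all genes passed, most of them lower with Cas9. GSK3A mRNA fell by 0.43 at 72 h (edgeR adjusted p = 0.034), from 76.0 to 78.1 CPM with dCas9 to 53.8 to 60.2 CPM with Cas9, without overlap. The lowest of the list in the 36 h footprints was PPP1R15A, the stress-induced phosphatase subunit, at -1.22 ± 0.51 (edgeR adjusted p = 0.48), and the highest was EIF2AK3, the kinase PERK, at 0.80. The list's median was -0.16 in these footprints, beside 0.02 over all genes.

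Of 10 genes known to respond to phosphorylated eIF2, 6 were tested at each time and 0 passed with edgeR in footprints, mRNA or translational efficiency between Cas9 and dCas9. The list's median log2 fold change in footprints was 0.16 at 36 h and 0.09 at 72 h, beside 0.02 and 0.00 over all genes. It ran from -1.22 (PPP1R15A) to 0.38 (ASNS) at 36 h and from 0.03 (IFRD1) to 0.19 (PPP1R15A) at 72 h. In footprints 0% of all genes passed at either time, and a shift of the list was not tested. At an unadjusted edgeR p under 0.05 were PPP1R15A in the 36 h footprints and translational efficiency, at the low footprint levels given above, and IFRD1 in the 72 h mRNA. ATF4, the transcription factor whose upstream reading frames hold back its translation until eIF2 is phosphorylated, had 36 h footprints of 62.1 to 87.5 CPM with Cas9 and 67.8 to 113 CPM with dCas9, and 72 h footprints of 46.5 to 49.7 and 42.5 to 49.97 CPM. Its groups overlapped at both times, and its log2 footprint to mRNA ratio in dCas9 cells was -2.89 at 36 h and -3.54 at 72 h, far under the average gene.

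The 13 eIF3 subunits gave 2 calls in the 72 h mRNA, where 5.63% of all genes passed, most of them lower with Cas9. EIF3C fell by 0.92 (edgeR adjusted p = 0.0006), from 685 to 732 CPM with dCas9 to 317 to 431 CPM with Cas9, while its 72 h footprints were at 1249 to 1260.3 CPM with Cas9 and 1222 to 1259 CPM with dCas9. Its translational efficiency was accordingly higher by 0.94 (edgeR adjusted p = 0.027). EIF3A mRNA fell by 0.51 (edgeR adjusted p = 0.014). No subunit of eIF2 or eIF2B had such a change.

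The genes most like each complex over the 17 libraries were also listed, from log2 CPM centred within time and library type. For eIF2 they were ATP6V1C1 (Pearson r = 0.93), SLC16A1 (0.91) and VPS35 (0.90), out of 8967 genes compared. For eIF2B they were DYNLL2 (0.93), HMCES (0.84) and PTPRA (0.84), out of 8966. For each member, r was taken against the mean of the other subunits, so it cannot be ranked beside the r of the picked genes. It was -0.25 for EIF2S1, 0.17 for EIF2S2 and 0.61 for EIF2S3, and -0.52 to -0.23 for the eIF2B subunits. These are descriptions of 17 libraries that share depth and composition, and the top genes were picked for their correlation.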

How the data were processed

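Per the study's methods, the authors aligned reads to the human genome with hisat2 (36 h) or tophat (72 h) and used fp-count to count reads on each transcript, and they deposited raw counts beside the number of counted codons. The submitters' processing notes name HISAT2 2.1.0 and GRCh38. Here transcripts were matched to genes through GENCODE release 44, and the transcript with the highest summed count was kept for each gene. 1341 of 26679 transcripts at 36 h (3.74% of counts) and 3456 of 98334 at 72 h (4.22%) had no match and were left out. Groups came from the labels.

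Genes averaging 20 or more counts in footprints and also in mRNA were tested per time point with edgeR 4.0.16 (R 4.3.3, limma 3.58.1): quasi-likelihood fit, TMM scaling, 1 mean per nuclease and library type, Benjamini-Hochberg over all genes, threshold 0.1. Both library types share 1 estimate of spread. DESeq2 1.42.0, other scaling, no minimum, separate fits, a replicate block and each replicate left out were alternatives. On simulated data with planted log2 changes of 1.5 and 1 spread per library type, the fit recovered most of the changed genes. Smaller changes were not simulated. The fit also called 482 unchanged genes in the 36 h footprints and 52 in the 72 h mRNA, so footprints alone were fitted as well. All members were named, with partner genes past the threshold, at the ends of their list, or named in advance (ATF4, EIF5, CDC123). Members and lists were chosen with earlier results of these data known. Sequences and positions came from GRCh38. The 36 h footprints of Cas9 replicate b were not analysed here.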

Additional observations from a re-analysis of the deposited data

How the results depend on the processing

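No called value of a member changed sign. Of 872 alternative values of members and their ratios, 839 were on the same side of the threshold or within the spread, 4 gained a call, 6 lost one and 23 moved beyond their error, among them uncalled values of EIF2B2, EIF2B4, EIF2B1, EIF2S3, EIF2S1 and EIF2B3 that changed sign when 1 library was left out. Leaving out 1 replicate gave 0 to 2 members called in 36 h footprints (2 without dCas9 replicate d, with 918 of 9016 genes), 0 to 2 in 72 h mRNA (2 without dCas9 replicate b, with 2472 of 10896 genes) and 2 to 4 in the 36 h footprint to mRNA ratio (2 without dCas9 mRNA replicate e). Of all genes, DESeq2 called 46 and a fit with no minimum 21 in 36 h footprints, against 0. Calls in 72 h translational efficiency were 78, against 221 with DESeq2, 170 with median-ratio scaling and 260 with no minimum, and 72 h mRNA calls were 613, against 831, 793 and 884 in these and 293 in mRNA alone. Leaving out 1 library gave 0 to 918 genes in 36 h footprints (323 without Cas9 replicate c), 0 to 474 in 36 h translational efficiency (474 without dCas9 footprint replicate d), 110 to 2472 in 72 h mRNA (110 without Cas9 replicate a, 405 without dCas9 footprint replicate f) and 1 to 1065 in 72 h translational efficiency (1065 without dCas9 mRNA replicate b, 1 without Cas9 footprint replicate e or f or dCas9 footprint replicate f, 3 without dCas9 footprint replicate e, and 29, 246 and 223 without the mRNA of Cas9 a, Cas9 b and dCas9 a). Without dividing by codons, the mean of EIF2S1 and EIF2S2 over that of the eIF2B subunits had group medians of 2.08 to 2.76. A replicate block left 0 members called in 36 h translational efficiency and in the 72 h comparisons of Cas9 with dCas9 (mRNA 535 genes, translational efficiency 88, footprints 0) and 3 members in the 36 h ratio, where EIF2B3 had an edgeR adjusted p of 0.13. Deviations from group means correlated at 0.01 to 0.07 between 36 h libraries of the same letter, at 0.01 in 72 h footprints and at -0.14 in 72 h mRNA. Groups held few libraries and shallow ones carry counting noise, so this check cannot tell whether the letters pair the libraries. With the 72 h letters crossed, added after the data had been seen, 1133 genes were called in mRNA and 249 in translational efficiency. No block of the 72 h ratio was possible because footprint and mRNA libraries share no letters across both groups. Members had as few as 28 footprints in a library at 36 h, which set the width of their counting intervals.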
